A study of Mus musculus with 17 samples.

Results

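Fiona muscle was compared with mdx muscle across all genes of the array, on 11 of the 17 arrays of the series: every array whose title names fiona (5) or mdx (6). The remaining 6 arrays hold normal muscle and serve here as a reference level. Each array measured RNA of the tibialis anterior, a mostly fast muscle at the shin, taken from both legs of a mouse and pooled. The mice were 56 days old and male per the labels, and every labelling reaction used 8 µg of RNA. The mdx mouse carries a premature stop in Dmd and lacks full-length dystrophin. The fiona line carries that defect too and in addition a transgene that gives high levels of utrophin, so both groups share the loss of dystrophin and differ by the transgene. The fiona transgene is known to be driven by a skeletal actin promoter, so it is made in muscle fibres and not in the other cells of the muscle. Fiona is a single transgenic line, and effects of the transgene cannot be told apart from other differences between the lines. Of 22690 probe sets, the 64 Affymetrix controls were set aside, and 22626 probe sets were tested. They held 12393 genes, each described on the brightest probe set that carries its symbol alone.

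Dystrophin links the actin cytoskeleton of a muscle fibre through a membrane complex to the matrix outside it. Without dystrophin the membrane tears under load, fibres die, and the muscle passes through rounds of macrophage entry, matrix deposition and regrowth from satellite cells. The tibialis anterior of a young mdx mouse is in this phase. Utrophin is a close relative of dystrophin that adult fibres hold mainly at the neuromuscular junction, and a raised level along the membrane can take dystrophin's place in the complex. The deposited values are on a log2 scale, so that a difference of 1 is 2-fold, and they describe whole muscle. In such bulk samples, fewer cells of a type and less RNA per cell cannot be told apart.

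The arrays carried muscle RNA in both groups. The 18 skeletal muscle markers, among them muscle actin and creatine kinase, averaged 14.03 to 14.42 per array in fiona and 13.96 to 14.32 in mdx muscle, and 0 of them were called. Array medians lay between 3.60 and 3.82 in fiona and between 3.56 and 3.61 in mdx muscle, with fiona arrays 3 (3.76) and 5 (3.82) highest. The 15 unspiked bacterial controls, which mark the level of an absent transcript, had array medians of 2.75 to 2.99 in fiona and 2.65 to 2.75 in mdx muscle. On mdx array 1 the 3′ probe set of Gapdh exceeded the 5′ one by 2.54 (others of both groups -0.31 to 0.06), a measure of RNA integrity. Beyond the groups, the arrays fell into 2 sets along 1 component of the residuals. Set 1 held fiona arrays 1 and 4 and mdx arrays 3, 4 and 5, and set 2 the others. The 3′ minus 5′ difference of actin was 0.61 to 0.85 on these fiona and mdx arrays of set 1. Within set 2 it was 0.61 on mdx array 1 and -0.05 to 0.20 on the other fiona and mdx arrays. Xist and Y-linked transcripts had a female pattern on fiona arrays 1, 2, 3 and 5, against the male label. The same held for mdx arrays 1 and 4 and for normal array 6. Mdx array 6 showed both and was counted with the male pattern. The part of these features in each result was not tested beyond the alternatives given with it.

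The background of the fiona arrays was shifted upward, and this shift set how genes were counted. At an adjusted p under 0.05 alone, 5070 genes passed (40.9% of those tested). Of these, 4203 (33.9%) were higher and 867 (7.00%) lower in fiona muscle. With probe sets ranked by level and cut into 10 equal bins, the median difference lay between 0.06 and 0.18 in the 5 dimmest bins. In the 3 brightest bins it lay between -0.08 and -0.03. Fiona arrays 3 and 5 were furthest from mdx muscle at both ends. In the 3 brightest bins their median difference was -0.30 to -0.18, while that of fiona arrays 1, 2 and 4 was 0.03 to 0.06. Centring each array on its median moved the median difference over all probe sets from 0.08 to -0.04, and turned the split of the passing probe sets from 8140 higher and 1376 lower to 1227 higher and 1246 lower. Differences are given as deposited, and the median over all genes was 0.08. Since the shift depended on level, the median of the bin is the nearer reference for dim and for bright genes. For bright genes that median does not describe each fiona array.

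A gene was called only where its adjusted p was under 0.05 and its difference at least 2-fold. By that rule 443 genes (3.57%) were called, 414 of them lower (3.34%) and 29 higher (0.234%) in fiona than in mdx muscle. After centring, 441 genes were lower and 14 higher, and 384 of the 443 were among them. Without fiona arrays 3 and 5 the count was 170, of which 162 were among the 443, and within array set 2 alone it was 65. Over probe sets the same rule called 681 (3.01%). Of the genes called, 104 were lower by at least 4-fold, 33 of those by at least 8-fold, and 3 were higher by at least 4-fold. The fiona mean lay within 0.5 of the normal mean for 319 of the 414 lower genes and for 20 of the 29 higher ones. This count uses the same fiona arrays as the test that chose the genes. The share over all genes was not counted, so the count alone does not show a return to normal. The groups did not overlap for 226 of the lower and 12 of the higher genes. Over all genes the groups did not overlap for 4034 (32.6%). With 211 called genes on more than 1 probe set, 75 had a second probe set called and 0 had one called in the opposite direction.

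**Figure D1:**
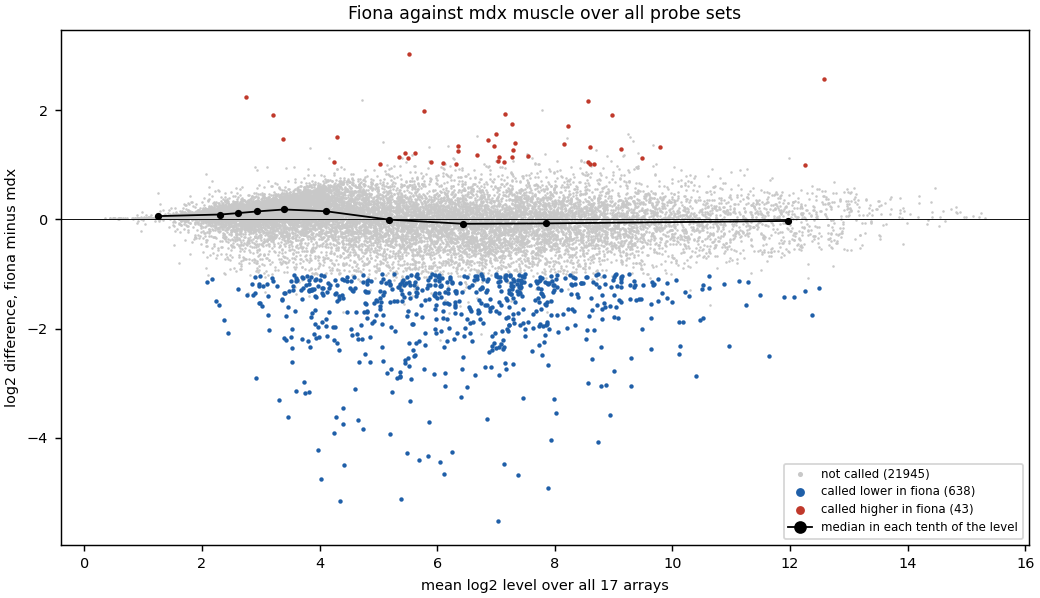
Log2 difference between fiona and mdx muscle (y axis) against the mean log2 level over all 17 arrays (x axis), 1 point per probe set, with called probe sets coloured and the median of each of 10 equal bins of the level as a black line. The line lies above 0 for dim and slightly below 0 for bright probe sets, and 638 of the 681 called probe sets lie below it.

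Utrn, the gene of the transgene, was read by 3 probe sets that did not move alike. On probe set 1427569_a_at the fiona arrays, in the order of arrays 1 to 5, read 4.94, 3.04, 3.78, 7.28 and 2.48. The mdx arrays read 2.07, 2.10, 2.06, 2.05, 2.07 and 2.04. Signal above the unspiked controls was present on 4 of 5 fiona and 0 of 6 mdx arrays, and arrays 1 and 4 read highest. Against the control level fiona muscle was at least 3.05-fold higher (adjusted p = 0.0126 in limma). For the permutation tests, values at or under the unspiked controls of their array were set to a common level and so carried no order. The two-sided exact permutation p was 0.0152 over 462 divisions (n = 5 and 6). Probe set 1426892_at read 6.39, 2.68, 3.54, 7.02 and 3.02 in fiona muscle and 2.58 to 2.67 in mdx muscle, at least 3.57-fold (adjusted p = 0.0262; exact permutation p = 0.0152). Its call was lost after centring (adjusted p = 0.0782), without fiona array 1 (0.0689) and without fiona array 4 (0.0556). The difference on that probe set was 3.66 larger within array set 1 than within set 2 (adjusted p of the interaction = 4.32e-05). The brightest probe set, 1452222_at, read 7.04, 6.63, 6.61, 7.36 and 5.21 in fiona and 7.11, 6.45, 6.99, 7.59, 7.05 and 6.67 in mdx muscle. Those ranges overlapped, and the difference of -0.41 was not called (adjusted p = 0.303; exact permutation p = 0.329).

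Dmd, whose mutation both groups carry, was not called on any of its 3 probe sets. Probe set 1417307_at read 3.53, 3.36, 3.23, 3.53 and 3.28 in fiona and 3.28, 3.27, 3.28, 3.43, 3.52 and 3.34 in mdx muscle, against 6.64 ± 0.20 in normal muscle (SD, n = 6). The groups overlapped, with a difference of 0.03 (adjusted p = 0.788; exact permutation p = 0.654). Probe set 1448665_at spanned 4.20 to 6.70 in fiona and 4.12 to 6.30 in mdx muscle (adjusted p = 0.677). The dim probe set 1430320_at was 0.29 higher in fiona muscle (adjusted p = 0.0169; exact permutation p = 0.00216, the smallest possible here), under the 2-fold rule. After centring the difference was 0.17 (adjusted p = 0.0769).

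**Figure D2:**
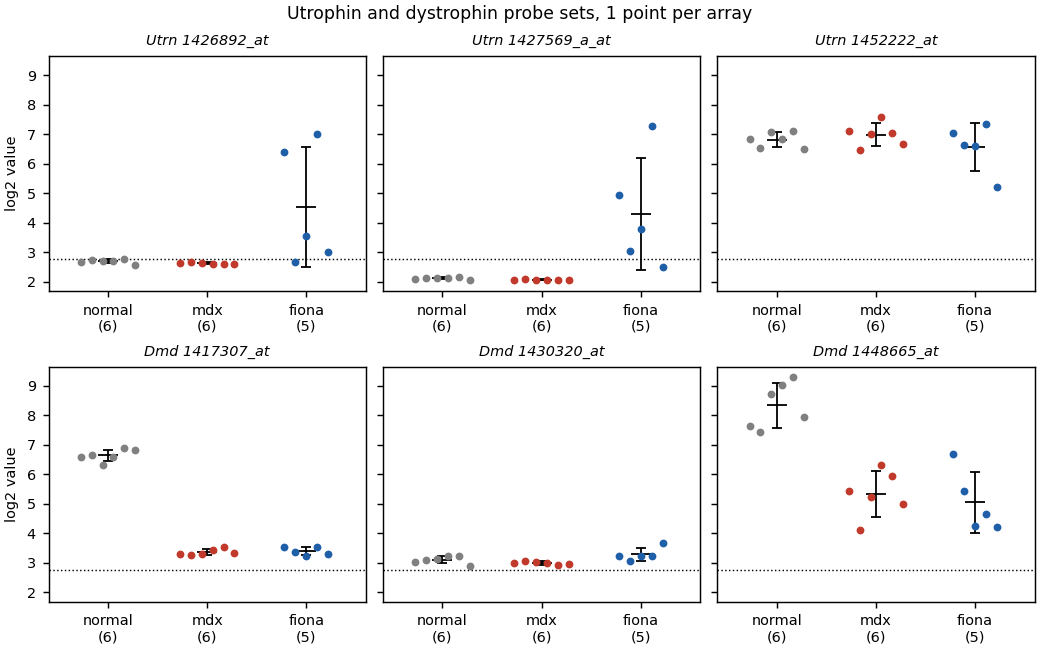
Log2 values (y axis) of the 3 Utrn (upper row) and 3 Dmd probe sets (lower row) in normal, mdx and fiona muscle, 1 point per array, with bars for the mean ± SD and a dotted line at the median level of the unspiked controls. Fiona arrays 1 and 4 read highest on the first pair of Utrn probe sets, and Dmd on 1417307_at is as low in fiona as in mdx muscle.

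Of the 18 measured partners of dystrophin, 1 rose, 1 fell and the median difference was -0.13. Over all genes 0.234% were called higher and 3.34% lower, and the list counts here and below are to be read beside these shares. The dystroglycan, sarcoglycan and syntrophin genes were among those not called. Nos1, the neuronal nitric oxide synthase that dystrophin anchors at the membrane, read 8.39, 5.84, 8.47, 8.04 and 8.60 in fiona and 5.06, 6.81, 5.76, 5.54, 5.73 and 6.69 in mdx muscle. Fiona array 2 lay inside the mdx range and the other 4 above it, for a 3.83-fold rise (adjusted p = 0.0135). Lama2, the laminin chain that the complex binds outside the fibre, fell 2.16-fold (adjusted p = 0.0124). It spanned 5.77 to 6.45 in fiona and 6.14 to 8.24 in mdx muscle, and the overlap came from mdx array 2. Cav3, caveolin of the muscle membrane, read 7.97, 8.47, 7.95, 7.84 and 7.96 in fiona and 9.57, 8.66, 9.05, 9.22, 8.50 and 8.98 in mdx muscle. Every fiona array lay below every mdx array, but the difference of -0.96 ± 0.16 (SE) missed the 2-fold rule (adjusted p = 0.0029).

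Macrophage genes had the lowest median of the 45 gene lists. Of 30 measured macrophage markers and receptors, 21 fell and 0 rose, beside 3.34% of all genes lower, and the median was -2.08 against 0.08 over all genes. The mean over the 30 genes was 3.89 to 4.45 per fiona array, 5.87 to 7.14 per mdx array and 3.80 to 4.25 per normal array. Gpnmb, a glycoprotein of phagocytes that have taken up debris, read 2.49, 2.45, 2.49, 2.61 and 2.75 in fiona and 8.16, 7.97, 7.51, 5.91, 7.94 and 8.86 in mdx muscle. All fiona arrays lay at or under the unspiked controls, and all mdx arrays were far above them, including the lowest, array 4. The fall was at least 28.4-fold (adjusted p = 1.05e-06). Tyrobp, the signalling adaptor of many myeloid receptors, read 3.18, 3.81, 3.37, 3.90 and 3.94 in fiona and 9.71, 8.04, 9.07, 7.92, 8.78 and 9.05 in mdx muscle (34.8-fold lower, adjusted p = 8.18e-08). Lgals3, the galectin of activated macrophages, read 6.26, 6.80, 6.01, 7.78 and 5.82 against 11.84, 11.22, 11.72, 10.28, 12.14 and 11.59 (30.5-fold lower, adjusted p = 8.36e-06), with normal muscle at 5.43 ± 0.66 (SD, n = 6). Fiona array 4 held the most Lgals3 of its group, still 2.50 below the lowest mdx array.

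The lysosomal membrane protein Cd68 read 2.35, 2.59, 2.59, 2.39 and 2.81 in fiona and 7.66, 6.47, 6.30, 5.64, 7.18 and 7.41 in mdx muscle (at least 14.8-fold lower, adjusted p = 1.05e-06). Mpeg1, a pore-forming protein that macrophages use against bacteria, read 3.81, 3.57, 4.83, 5.09 and 5.05 against 9.56, 8.30, 8.95, 7.97, 8.95 and 9.52 (21.2-fold lower, adjusted p = 2.32e-06). Cd53, a tetraspanin of white blood cells, read 2.59, 3.03, 2.59, 3.03 and 2.71 against 7.31, 5.83, 6.83, 6.76, 7.33 and 6.17 (at least 13.3-fold lower, adjusted p = 2.84e-06). The highest fiona array lay below the lowest mdx array by 2.83 for Cd68, 2.88 for Mpeg1 and 2.80 for Cd53. Ptprc, which encodes the common leukocyte antigen CD45, fell at least 6.45-fold and the oxidase subunit Cyba at least 15.1-fold (adjusted p = 0.000139 and 0.000463). Apoe, the lipid carrier that lipid-laden macrophages secrete, read 4.58, 7.36, 7.18, 5.86 and 6.66 against 10.45, 9.63, 10.69, 10.69, 10.31 and 10.47 (16.5-fold lower, adjusted p = 4.87e-05).

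Genes of leukocyte signalling followed in part. Of 18 measured, 8 fell (44.4%, beside 3.34% of all genes lower) and 0 rose. At the adjusted p alone 9 passed as lower and 7 as higher, beside 7.00% and 33.9% of all genes. The 8 that fell included the Fc receptor genes Fcgr3 and Fcgr2b, through which phagocytes bind antibody. Fcgr3 read 4.10, 4.49, 4.09, 4.77 and 4.30 in fiona and 8.34, 6.33, 8.31, 7.56, 8.03 and 7.50 in mdx muscle, without overlap (10.1-fold lower, adjusted p = 5.59e-05). Fcgr2b fell 7.48-fold, and the actin regulators of white blood cells Coro1a and Lcp1 fell 5.23-fold and 5.01-fold (adjusted p = 0.00063, 0.000292 and 4.24e-05). The list's median was only -0.23, and several of its other members lay under the unspiked controls in both groups.

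The transcription factor PU.1, needed to make macrophages, is known to bind sites built on GAGGAA. The windows of 250 bases before to 50 after the annotated start of 3 of the genes, chosen because they hold it, are shown, from RefSeq on the mouse build GRCm38.p6, in the direction of transcription, with GAGGAA or its reverse complement in capitals. Cd53 lies on the minus strand at chr3:106790100-106790399, Ctss, the lysosomal cathepsin S described further on, on the plus strand at chr3:95526536-95526835, and Cd68 on the minus strand at chr11:69666121-69666420.
Cd53: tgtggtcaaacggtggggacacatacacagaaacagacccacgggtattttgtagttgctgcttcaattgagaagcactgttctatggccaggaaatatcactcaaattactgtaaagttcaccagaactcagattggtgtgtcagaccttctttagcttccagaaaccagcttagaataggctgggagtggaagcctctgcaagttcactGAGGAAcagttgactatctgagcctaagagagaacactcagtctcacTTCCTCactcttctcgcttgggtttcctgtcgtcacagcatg
Ctss: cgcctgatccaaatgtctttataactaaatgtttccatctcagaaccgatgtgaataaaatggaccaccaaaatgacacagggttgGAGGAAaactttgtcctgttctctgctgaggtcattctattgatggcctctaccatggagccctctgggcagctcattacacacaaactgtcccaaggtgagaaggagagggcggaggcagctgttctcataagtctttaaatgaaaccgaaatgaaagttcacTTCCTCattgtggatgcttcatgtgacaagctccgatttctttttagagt
Cd68: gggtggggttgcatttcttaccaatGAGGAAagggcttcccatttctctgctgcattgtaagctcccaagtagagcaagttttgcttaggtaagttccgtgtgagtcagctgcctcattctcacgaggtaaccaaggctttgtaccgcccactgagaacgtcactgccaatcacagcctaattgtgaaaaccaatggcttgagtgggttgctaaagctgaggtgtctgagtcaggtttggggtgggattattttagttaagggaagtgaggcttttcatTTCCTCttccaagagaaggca
Counted from 0 at the annotated start, the matches begin at -39 and 8 in Cd53, at -164 and 0 in Ctss and at -225 and 29 in Cd68. Searched on both strands, GAGGAA occurred in 15 of 30 promoters of the called members of the macrophage and leukocyte signalling lists, in 31.1% of 418 promoters of all genes called lower and in 28.3% of all 32851 promoters of the table. A match in these windows is a description of letters, and no binding was measured.

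Soluble and surface immune genes fell as well. Of 21 chemokines and receptors, 5 fell (23.8%, beside 3.34% of all genes lower) and 0 rose. Ccl8, a chemokine that draws monocytes, read 3.91, 4.28, 3.87, 4.55 and 3.89 in fiona and 8.36, 6.92, 7.43, 6.47, 7.68 and 6.72 in mdx muscle (8.95-fold lower, adjusted p = 3.64e-05), and the groups were 1.92 apart. Ccl6 fell 9.67-fold and Ccl9 6.67-fold (adjusted p = 0.00883 and 0.00602), with fiona array 1 lowest for both. Of 12 complement genes, 10 fell, with a median of -1.20. The chains of C1q, which starts the classical pathway and is made by macrophages, were among them. C1qb read 7.86, 7.73, 7.87, 8.73 and 7.31 in fiona and 11.33, 10.23, 11.54, 10.68, 11.24 and 10.62 in mdx muscle (8.21-fold lower, adjusted p = 0.000186). C1qc read 2.33, 4.56, 4.54, 2.94 and 4.48 against 8.96, 7.50, 8.02, 7.67, 7.92 and 8.27 (at least 18.1-fold lower, adjusted p = 4.29e-05), and fiona arrays 1 and 4 were the lowest. C1qa fell 9.52-fold (adjusted p = 0.0028).

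Of 7 genes of antigen presentation by MHC class II, 5 fell, among them cathepsin S (Ctss). The class II chains H2-Ab1 and H2-Eb1 fell 2.57-fold and 2.31-fold (adjusted p = 0.0126 and 0.012). H2-Eb1 spanned 6.20 to 7.73 in fiona, 7.90 to 9.27 in mdx and 6.05 to 6.92 in normal muscle. Of 18 interferon-induced genes, 1 fell (5.56%, beside 3.34% of all genes lower), and the median was -0.54. It was the membrane tether Bst2 (2.38-fold, adjusted p = 0.0185, and 0.0602 after quantile normalization). On mdx arrays the mean over these 18 genes ran from 4.00 to 5.55, and on fiona arrays from 4.04 to 4.40. Only mdx arrays 1 (5.49) and 4 (5.55), which had the female pattern, lay above the fiona range. Bst2 was also highest on these arrays (7.44 and 7.28).

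Of 26 measured proteases, glycosidases and membrane proteins of the lysosome, 14 fell and 0 rose, with a median of -1.09. Ctss, a protease of antigen-presenting cells, read 7.34, 7.90, 7.98, 8.65 and 8.19 in fiona and 11.97, 10.90, 11.97, 11.24, 11.89 and 11.64 in mdx muscle (12.1-fold lower, adjusted p = 1.69e-05). Lgmn, the asparagine-specific protease legumain, read 5.13, 5.99, 6.04, 5.04 and 6.37 against 8.94, 8.06, 8.49, 8.22, 8.66 and 9.02 (7.2-fold lower, adjusted p = 2.92e-05). The groups were 2.25 apart for Ctss and 1.69 apart for Lgmn. Cathepsins H, K and Z (Ctsh, Ctsk, Ctsz) fell 6.48-fold, 6.21-fold and 4.02-fold (adjusted p = 0.000108, 0.012 and 6.45e-05). Grn, progranulin of the lysosome, fell 3.51-fold, and Ctsl, a cathepsin that also rises in muscle atrophy, fell 2.28-fold (adjusted p = 0.012 and 0.00255).

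Matrix genes, which fibroblasts express most, were lower too. Of 22 collagens and other fibrillar matrix genes, 10 fell and 0 rose, and the median was -1.17. The mean over the 22 was 5.67 to 6.97 on fiona, 7.12 to 8.20 on mdx and 6.06 to 6.91 on normal arrays, and fiona array 1 held the lowest mean of all. Col3a1, the chain of type III collagen laid down early in repair, read 10.62, 12.08, 12.05, 11.62 and 11.96 in fiona and 13.65, 12.81, 13.36, 13.74, 13.61 and 13.39 in mdx muscle (3.39-fold lower, adjusted p = 0.000765). Even the highest fiona array stayed below the lowest mdx array. Col5a2 and Col6a3, chains of the collagens V and VI, fell 3.44-fold and 3.05-fold (adjusted p = 0.00618 and 0.0103), and fibronectin (Fn1) fell 3.14-fold (adjusted p = 0.012). Col14a1 and the microfibril protein Mfap5 fell 5.79-fold and 3.77-fold, but for both the lowest mdx array, array 2, lay inside the fiona range (adjusted p = 0.0117 and 0.012).

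Of 19 matricellular proteins and proteoglycans, 9 fell and 0 rose. Postn, periostin of growing and repairing tissue, read 7.34, 8.68, 9.0, 8.40 and 8.99 in fiona and 11.98, 9.03, 10.74, 12.61, 10.95 and 10.76 in mdx muscle. Mdx array 2 was almost level with the highest fiona arrays, and the fall was 5.78-fold (adjusted p = 0.0121). Tnc, tenascin-C, fell 4.02-fold, the collagen-binding proteoglycan Lum 2.95-fold and the calcification inhibitor Mgp 2.65-fold (adjusted p = 0.0125, 0.0165 and 0.0126). Of 14 genes that process and cross-link collagen, 4 fell. Lox, lysyl oxidase, which starts the cross-links, read 4.69, 6.48, 5.47, 5.43 and 5.21 against 8.54, 6.49, 7.16, 7.95, 7.64 and 7.75 (4.38-fold lower, adjusted p = 0.012). Its relative Loxl1 fell 3.69-fold and the procollagen enhancer Pcolce 2.85-fold (adjusted p = 0.012 and 0.012). Of 12 basement membrane genes, 3 fell, among them nidogen 1 (Nid1, 2.35-fold) and the laminin chain Lamc1 (2.04-fold; adjusted p = 0.00318 and 0.012).

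Timp1, an inhibitor of matrix metalloproteases, fell most among the proteases, inhibitors and TGF-beta genes. It read 2.33, 2.30, 2.33, 2.23 and 2.73 in fiona and 8.82, 6.39, 6.73, 6.72, 6.74 and 7.46 in mdx muscle, at or under the unspiked controls on every fiona array and well above on every mdx array (at least 19-fold lower, adjusted p = 1.05e-06). Of the 32 genes of that list, 12 fell and 0 rose, while the median was 0.00, with 20 of the 32 not called. Mmp12, the elastase of macrophages, read 2.81, 2.69, 3.35, 3.15 and 3.15 against 6.18, 6.42, 4.49, 2.80, 5.72 and 5.69 (at least 4.48-fold lower, adjusted p = 0.012), and mdx array 4 lay inside the fiona range. Mmp2 and Mmp3, which cut matrix proteins, fell 3.31-fold and at least 3.23-fold (adjusted p = 0.00293 and 0.012). The myeloid sheddase Adam8 fell 4.26-fold and the TGF-beta-induced adhesion protein Tgfbi 3.83-fold (adjusted p = 0.00226 and 0.00893).

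**Figure D3:**
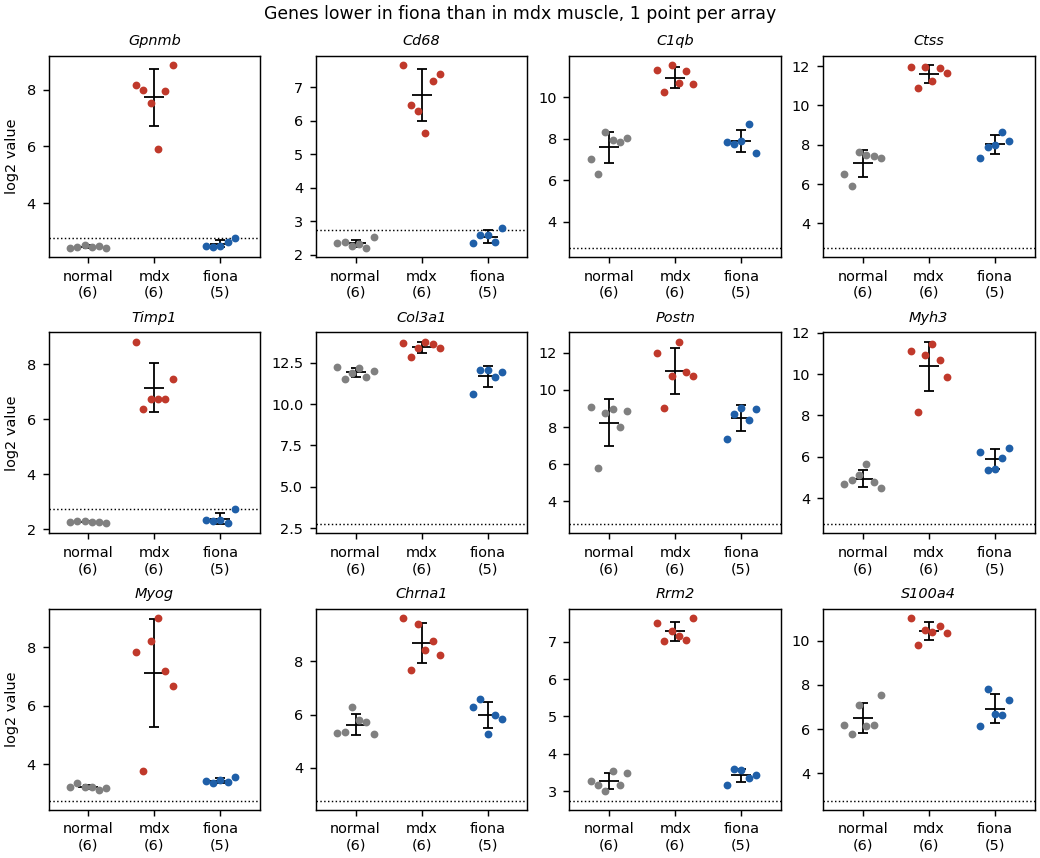
Log2 values (y axis) of 12 genes that fell in fiona muscle, in normal, mdx and fiona muscle, 1 point per array, with bars for the mean ± SD and a dotted line at the median level of the unspiked controls. In every panel the fiona points lie below all mdx points, with the smallest gap for Postn (0.03) and the largest for Timp1 (3.66).

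Contractile proteins of developing fibres fell as well. Of 25 genes on the list of developmental and fetal contractile genes, 15 fell and 0 rose, with a median of -1.43. The mean over the list was 5.39 to 6.02 on fiona, 6.53 to 8.35 on mdx and 5.30 to 5.71 on normal arrays. Myh3, embryonic myosin heavy chain, which marks newly formed fibres, read 6.25, 5.37, 5.41, 5.93 and 6.45 in fiona and 11.11, 8.19, 10.91, 11.45, 10.70 and 9.87 in mdx muscle (22.4-fold lower, adjusted p = 5.74e-05). Mdx array 2 was the lowest of its group and still above every fiona array. Myl4, the atrial and embryonic light chain, read 5.94, 6.30, 5.87, 4.79 and 6.62 against 10.96, 8.71, 11.06, 11.86, 10.85 and 10.06 (25.6-fold lower, adjusted p = 6.62e-05). Tnnt2, the cardiac and embryonic troponin T, read 4.78, 4.51, 4.26, 4.62 and 4.79 against 10.17, 6.54, 10.38, 10.11, 9.69 and 8.65 (25.4-fold lower, adjusted p = 0.000124). In these 3 genes mdx array 2 was lowest and array 6 next.

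Tnni1, slow troponin I, which developing fibres of all kinds use, read 4.11, 5.09, 4.47, 3.80 and 4.45 in fiona and 9.40, 6.59, 9.54, 9.79, 9.25 and 8.40 in mdx muscle (21.8-fold lower, adjusted p = 0.000411). Its slow partners Tnnc1 and Tnnt1 fell 6.65-fold and 5.04-fold (adjusted p = 0.012 and 0.0153), with mdx array 2 inside the fiona range for both. Sarcolipin (Sln), the small inhibitor of the calcium pump, read 2.66, 4.89, 2.65, 2.41 and 2.34 against 9.09, 7.41, 6.89, 8.05, 6.02 and 7.49 (at least 18-fold lower, adjusted p = 0.000115). On 4 of the 5 fiona arrays it lay at or under the unspiked controls, and fiona array 2 was the exception. Atp2a2, the slow-fibre calcium pump, fell 3.77-fold and the calcium channel subunit Cacng1 2.18-fold (adjusted p = 0.012 and 0.000241). Tubb6, a tubulin of regenerating fibres, read 5.61, 6.38, 5.14, 6.14 and 5.91 against 10.12, 8.36, 10.71, 9.24, 9.66 and 8.81 (12.6-fold lower, adjusted p = 5.49e-05), and the tubulins Tubb2b and Tubb2a fell 8.29-fold and 6.37-fold (adjusted p = 0.00249 and 0.000282).

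Of 25 myogenic transcription factors and satellite cell genes, 1 fell (4%), near the 3.34% of all genes lower. Myog, myogenin, which commits myoblasts to fuse and mature, read 3.41, 3.35, 3.47, 3.40 and 3.55 in fiona and 7.84, 3.75, 8.23, 9.0, 7.19 and 6.67 in mdx muscle. It fell 12.8-fold (adjusted p = 0.0041), and mdx array 2 lay 0.20 above the highest fiona array. Mymk, the membrane protein that lets myoblasts fuse, was not on the list. It read 2.14, 2.14, 2.14, 2.12 and 2.17 in fiona muscle, at or under the unspiked controls throughout, and 7.21, 3.50, 5.63, 5.21, 5.80 and 5.40 in mdx muscle (at least 5.92-fold lower, adjusted p = 0.000309). Myf6, a factor of mature fibres, was lower by less than the 2-fold rule (-0.83 ± 0.18 SE, adjusted p = 0.012), without overlap between the groups.

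Innervated adult fibres confine the acetylcholine receptor to the endplate, and denervated or newly formed fibres make it along their length, with Chrng, the fetal gamma subunit, in place of the adult one. Chrna1, the alpha subunit that binds acetylcholine, read 6.27, 6.58, 5.26, 5.99 and 5.83 in fiona and 9.64, 7.68, 9.42, 8.42, 8.76 and 8.23 in mdx muscle (6.52-fold lower, adjusted p = 0.000264). The lowest mdx array, again array 2, lay 1.10 above the highest fiona array. Chrng spanned 3.19 to 3.31 in fiona and 3.39 to 6.66 in mdx muscle (2.45-fold lower, adjusted p = 0.0295). That call was lost after centring (adjusted p = 0.053), without fiona array 3 (0.0538) or 5 (0.0544) and without mdx array 3 (0.0619). Of the 15 endplate genes, 3 fell and 1 rose, beside 3.34% of all genes lower and 0.234% higher.

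Myogenin and its relatives bind the E-box, of which CAGCTG is a common form, and the promoters of 2 receptor subunits are shown because they hold it. The windows, from RefSeq on GRCm38.p6 and in the direction of transcription, carry CAGCTG in capitals, a motif that reads the same on both strands. Chrna1 lies on the minus strand at chr2:73580289-73580588 and Chrng on the plus strand at chr1:87205561-87205860.
Chrna1: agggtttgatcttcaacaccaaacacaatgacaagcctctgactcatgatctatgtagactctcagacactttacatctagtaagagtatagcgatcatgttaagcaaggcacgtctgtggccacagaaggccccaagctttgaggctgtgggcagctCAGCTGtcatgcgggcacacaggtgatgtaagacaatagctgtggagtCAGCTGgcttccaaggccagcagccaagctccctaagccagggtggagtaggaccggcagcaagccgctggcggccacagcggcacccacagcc
Chrng: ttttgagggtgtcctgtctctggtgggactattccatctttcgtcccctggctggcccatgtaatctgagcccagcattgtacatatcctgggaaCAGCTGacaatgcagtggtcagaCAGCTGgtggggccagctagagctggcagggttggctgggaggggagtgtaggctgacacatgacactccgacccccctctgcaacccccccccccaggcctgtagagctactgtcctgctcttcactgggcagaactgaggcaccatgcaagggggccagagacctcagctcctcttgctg
The matches begin at -92 and -44 in Chrna1 and at -155 and -132 in Chrng, counted from 0 at the annotated start. CAGCTG occurred in 6 of 23 promoters of the called members of the developmental contractile and endplate lists, in 19.6% of the 418 promoters of all genes called lower and in 16.3% of all promoters of the table. These shares describe the windows, and whether a factor was bound was not measured.

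Proteins of membrane repair and the cell edge formed another group that fell. Of 22 annexins, S100 proteins and membrane repair genes, 10 fell and 0 rose, with a median of -0.93. S100a4, a calcium-binding protein of motile cells, read 6.16, 7.83, 6.68, 6.64 and 7.30 in fiona and 11.04, 9.81, 10.51, 10.39, 10.67 and 10.36 in mdx muscle (11.7-fold lower, adjusted p = 3.64e-05). The nearest arrays of the groups were 1.98 apart. S100a6 fell 3.57-fold (adjusted p = 0.000891). The annexins Anxa1, Anxa2 and Anxa4, which bind membranes where calcium enters, fell 5.06-fold, 3.5-fold and 4.68-fold (adjusted p = 0.00267, 0.0015 and 0.000394). Tmsb10, an actin-binding thymosin, fell 5-fold (adjusted p = 0.000282).

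Growth and stress genes gave a few large falls. Igf2, a growth factor of regenerating fibres, read 5.99, 7.24, 7.73, 5.53 and 7.47 in fiona and 8.33, 8.36, 8.96, 11.64, 9.63 and 9.72 in mdx muscle (6.27-fold lower, adjusted p = 0.0104), and both groups spread widely. Its relative Igf1 fell 2.21-fold (adjusted p = 0.023; 0.0995 after quantile normalization). Rrm2, the subunit of ribonucleotide reductase made in dividing cells, read 3.17, 3.61, 3.58, 3.35 and 3.44 against 7.49, 7.02, 7.27, 7.16, 7.05 and 7.63. The groups were 3.41 apart, and the fall of 14.3-fold had the smallest adjusted p of the genes described here (1.62e-10). Of the 38 cell cycle genes 3 fell (7.89%, beside 3.34% of all genes lower) and 0 rose, with a median of 0.01. Another was Cdkn1a, the cycle inhibitor p21 (2.01-fold lower, adjusted p = 0.012).

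Metallothioneins, which bind zinc and rise under stress, fell in every fiona array. Mt2 read 7.58, 7.31, 7.01, 7.84 and 6.44 in fiona and 11.50, 11.13, 11.57, 10.72, 11.86 and 11.10 in mdx muscle (16.9-fold lower, adjusted p = 0.000508), with normal muscle at 7.40 ± 1.42 (SD, n = 6). Mt1 fell 6.86-fold (adjusted p = 0.000147). Sat1, which breaks down polyamines, fell 3.37-fold and the peroxide-removing Gpx1 2.71-fold (adjusted p = 0.00112 and 0.00291). These were the 4 of 26 stress genes called (15.4%, beside 3.57% of all genes called). Ankrd1, a stretch-responsive ankyrin repeat protein of the sarcomere, read 7.46, 7.80, 7.23, 7.20 and 6.54 in fiona and 8.93, 9.30, 9.78, 10.17, 10.02 and 9.04 in mdx muscle (4.91-fold lower, adjusted p = 0.000265). Normal muscle read 6.31 ± 0.46 (SD, n = 6), below most fiona arrays. Mustn1, a nuclear protein of regenerating muscle, fell 2.55-fold (adjusted p = 0.012). In all 2 of 16 stretch genes fell (12.5%, beside 3.34% of all genes lower). The immediate early gene Ier3 was the 1 of 29 clock and immediate early genes called (2.2-fold lower, adjusted p = 0.012). That share, 3.45%, was near the 3.57% of all genes called.

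Of 29 genes of the secretory pathway, 4 fell (13.8%, beside 3.34% of all genes lower), and the median over the 29 was -0.45. Ssr1, of the translocon-associated complex through which new proteins enter the endoplasmic reticulum, fell 3.23-fold, the disulfide isomerase Pdia6 2.27-fold and the retrieval receptor Kdelr3 2.61-fold (adjusted p = 0.00135, 0.0028 and 0.0138). Of 26 cytosolic ribosomal proteins none was called, yet the median was -0.32. At the adjusted p alone 12 passed as lower and 1 as higher, beside 7.00% of all genes lower and 33.9% higher. In the brightest bin, which holds the list's mean level, 13.7% of probe sets passed as lower and 6.76% as higher. Rps4x and Rpl7 read 11.50 to 11.90 and 11.88 to 12 in fiona and 12.02 to 12.39 and 12.18 to 12.59 in mdx muscle (adjusted p = 0.00712 and 0.00909). Of 27 proteasome subunits 0 were called.

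Of the 29 genes that rose, 3 did so by at least 4-fold. Bdh1, which interconverts the ketone bodies in mitochondria, read 7.28, 6.51, 4.44, 7.23 and 6.00 in fiona and 2.65, 4.56, 3.61, 2.00, 3.48 and 3.22 in mdx muscle. Fiona array 3 lay just under mdx array 2, the other fiona arrays above every mdx array, and the rise was at least 7.52-fold (adjusted p = 0.0028), with normal muscle at 7.13 ± 0.48 (SD, n = 6). Members of the same list that make creatine fell: Gatm, the first enzyme of creatine synthesis, read 3.55, 3.53, 3.55, 3.54 and 3.57 against 5.06, 4.49, 7.48, 7.29, 5.83 and 5.51 (5.26-fold lower, adjusted p = 0.00457), and Gamt, the second enzyme, fell 3.02-fold (adjusted p = 0.006). In all 1 of that list's 10 genes rose and 3 fell.

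Dusp26, a phosphatase of muscle and brain, read 9.23, 8.86, 9.04, 9.32 and 9.43 in fiona and 7.39, 6.42, 6.96, 7.66, 6.41 and 7.21 in mdx muscle, without overlap (4.5-fold higher, adjusted p = 0.000102). Homer2, a scaffold for calcium signalling, read 6.75, 6.49, 6.29, 5.91 and 7.12 against 5.82, 3.29, 4.31, 5.65, 4.27 and 3.83 (3.95-fold higher, adjusted p = 0.012). The soluble epoxide hydrolase Ephx2 read 7.74, 7.91, 7.51, 7.12 and 7.13 against 6.76, 6.39, 5.51, 5.69, 5.97 and 6.48 (2.54-fold higher, adjusted p = 0.00278). In all 3 genes each fiona array exceeded each mdx array. Of 22 calcium handling genes, Homer2 rose and 3 fell. Tbc1d1, which acts on glucose transporter traffic, rose 2.4-fold, and Ppp1r1a, an inhibitor of protein phosphatase 1, 2.38-fold (adjusted p = 0.0119 and 0.012).

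Of 14 slow and oxidative fibre genes, 2 rose and 4 fell, beside 0.234% of all genes higher and 3.34% lower. Of 13 fast glycolytic genes 0 were called. Myh2, the myosin of fast oxidative fibres, read 13.41, 13.89, 13.80, 12.15 and 14.46 in fiona and 12.70, 10.34, 8.89, 12.33, 9.85 and 11.76 in mdx muscle. The mdx arrays spanned 3.81 and the groups overlapped at fiona array 4, for a 5.92-fold rise (adjusted p = 0.012). Myl3, a slow and cardiac light chain, read 9.07, 10.54, 9.62, 8.09 and 9.46 against 9.26, 6.86, 7.72, 6.74, 6.69 and 7.4 (3.76-fold higher, adjusted p = 0.012), with mdx array 1 inside the fiona range. The genes that fell were Tnni1, Tnnc1, Tnnt1 and Atp2a2, with the values given above. Myoglobin (Mb) was 0.57 ± 0.14 (SE) higher (adjusted p = 0.012; 0.0592 after centring).

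Of 31 fatty acid genes 2 rose (6.45%, beside 0.234% of all genes higher) and 0 fell. The median was 0.27, or 0.14 after centring. Dgat2, which makes triglyceride, read 6.66, 7.41, 6.89, 5.77 and 6.93 in fiona and 5.02, 5.82, 5.47, 5.22, 5.15 and 5.60 in mdx muscle, with fiona array 4 at the top of the mdx range (2.54-fold higher, adjusted p = 0.00792). Lpl, the lipase that takes fatty acids from blood, read 13, 12.72, 12.41, 12.38 and 12.23 against 11.71, 11.80, 11.17, 11.29, 11.65 and 11.66 (2.01-fold higher, adjusted p = 0.00293), without overlap and just past the 2-fold rule. Acadvl, which starts the oxidation of long fatty acids, was 0.76 ± 0.16 (SE) higher, under the rule (adjusted p = 0.012). Of 34 genes of the citrate cycle and respiratory chain 0 were called, before and after centring. At the adjusted p alone 8 passed as higher, beside 33.9% of all genes. In the brightest bin, which holds the list's mean level (12.07 to 12.45 on fiona arrays), 6.76% of probe sets passed as higher. Fh1 and Sdhb, of the citrate cycle, were 0.40 and 0.49 higher (adjusted p = 0.00903 and 0.0161; 0.0656 and 0.111 after centring). Of 21 glycolysis genes, 1 was called (4.76%, beside 3.57% of all genes called). It was Ldhb, the lactate dehydrogenase subunit of oxidative tissue, which rose (2.5-fold higher, adjusted p = 0.012). Hk2, muscle hexokinase, was 0.91 ± 0.18 (SE) higher (adjusted p = 0.00924).

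Dach2, a repressor in the pathway that links nerve activity to myogenin, rose on some arrays only. It read 5.63, 3.64, 2.93, 5.94 and 2.96 in fiona and 2.76, 2.81, 2.72, 2.76, 2.73 and 2.75 in mdx muscle, and fiona arrays 1 and 4 stood apart, as they did for Utrn (2.76-fold higher, adjusted p = 0.0262). The call was lost without fiona array 1 (0.0689) or 4 (0.0622) and after centring (0.0865), and the difference was 2.65 larger in array set 1 than in set 2 (adjusted p of the interaction = 0.0278). Clec16a, a regulator of the clearance of mitochondria chosen here after its values were seen, read 5.56, 6.78, 6.78, 6.41 and 6.48 in fiona and 5.29, 5.17, 5.15, 5.18, 5.13 and 5.26 in mdx muscle (2.31-fold higher, adjusted p = 0.00127). Normal muscle spanned 5.17 to 5.82, so that 4 fiona arrays lay above both other groups.

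**Figure D4:**
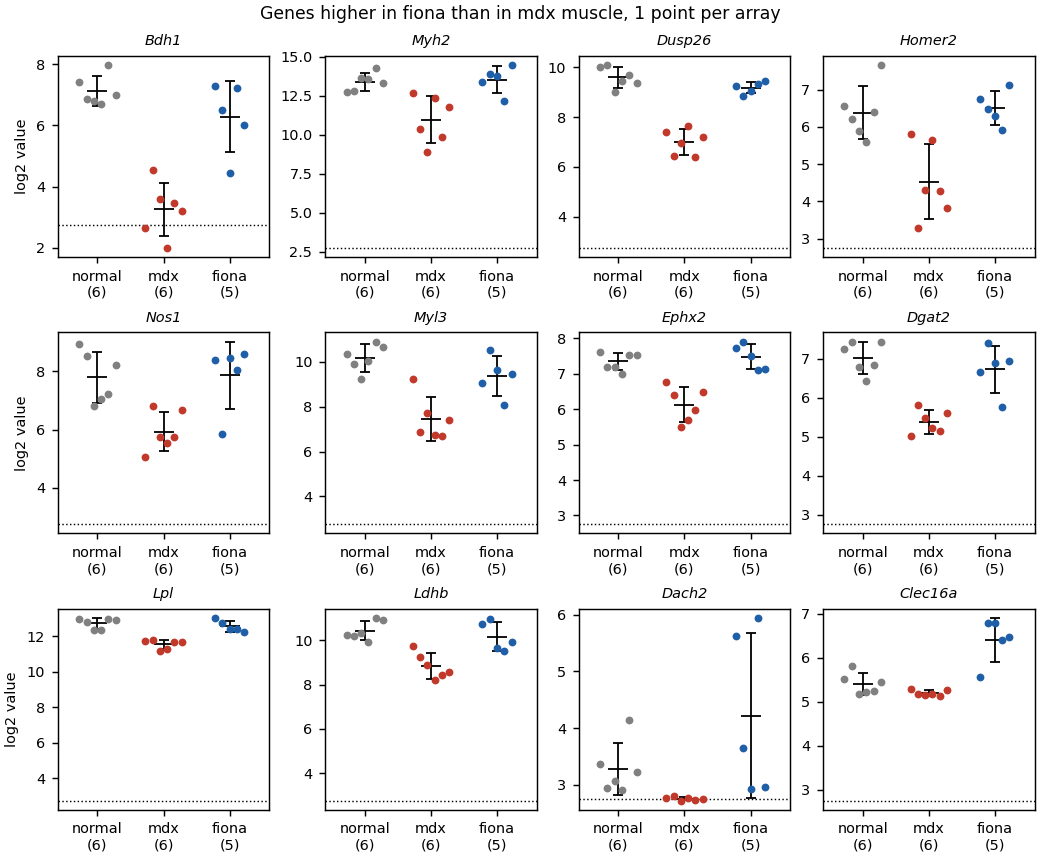
Log2 values (y axis) of 12 genes that rose in fiona muscle, in normal, mdx and fiona muscle, 1 point per array, with bars for the mean ± SD and a dotted line at the median level of the unspiked controls. Dusp26 and Ephx2 separate fully, Nos1 and Myh2 overlap at 1 fiona array, and Dach2 is high on fiona arrays 1 and 4.

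The muscle also holds other cell types, whose markers were listed. Of 15 fibroblast markers 3 fell, Pdgfra, the receptor that marks fibro-adipogenic progenitors (3.84-fold), Fstl1 (2.77-fold) and Serpinf1 (2.76-fold; adjusted p = 0.0139, 0.00822 and 0.0136). The mean over the 15 markers was 6.82 to 7.58 on fiona and 7.57 to 8.19 on mdx arrays. At the adjusted p alone 6 of them passed as lower and 2 as higher, beside 7.00% and 33.9% of all genes. None of 13 endothelial, 10 smooth muscle, 15 lymphocyte, 16 granulocyte and mast cell, 9 Schwann cell, 4 red cell and 10 epidermal markers was called. At the adjusted p alone in limma, 10 of the lymphocyte and 8 of the epidermal markers were higher in fiona muscle, beside 33.9% of all genes. Both lists were dim, with means of 2.95 to 3.41 and 3.02 to 3.51 per array. In the bins of that level, 4 and 5 from the dimmest, 59.48% and 51.95% of probe sets passed as higher. After centring the medians of the 2 lists were 0.03 and 0.06. The pericyte gene Rgs5 was 0.49 ± 0.12 (SE) higher (adjusted p = 0.012; 0.0698 after centring). Of 10 adipocyte markers Thrsp fell 2.59-fold, and of 10 tendon and cartilage markers Prg4, lubricin, did (adjusted p = 0.012 and 0.000279). At the adjusted p alone 3 of the adipocyte markers passed as higher and 1 as lower, and the median of that list was 0.04. Prg4 read 6.33, 7.59, 6.49, 7.45 and 6.22 in fiona and 10.99, 9.95, 9.52, 9.53, 10.39 and 10.26 in mdx muscle (9.79-fold lower), while the tendon marker Tnmd spanned 3.82 to 8.07 and 7.85 to 9.03 and was not called (adjusted p = 0.0975). On fiona array 1 Tnmd was 3.64 below the next fiona array, and the collagens described above were also lowest there.

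**Figure D5:**
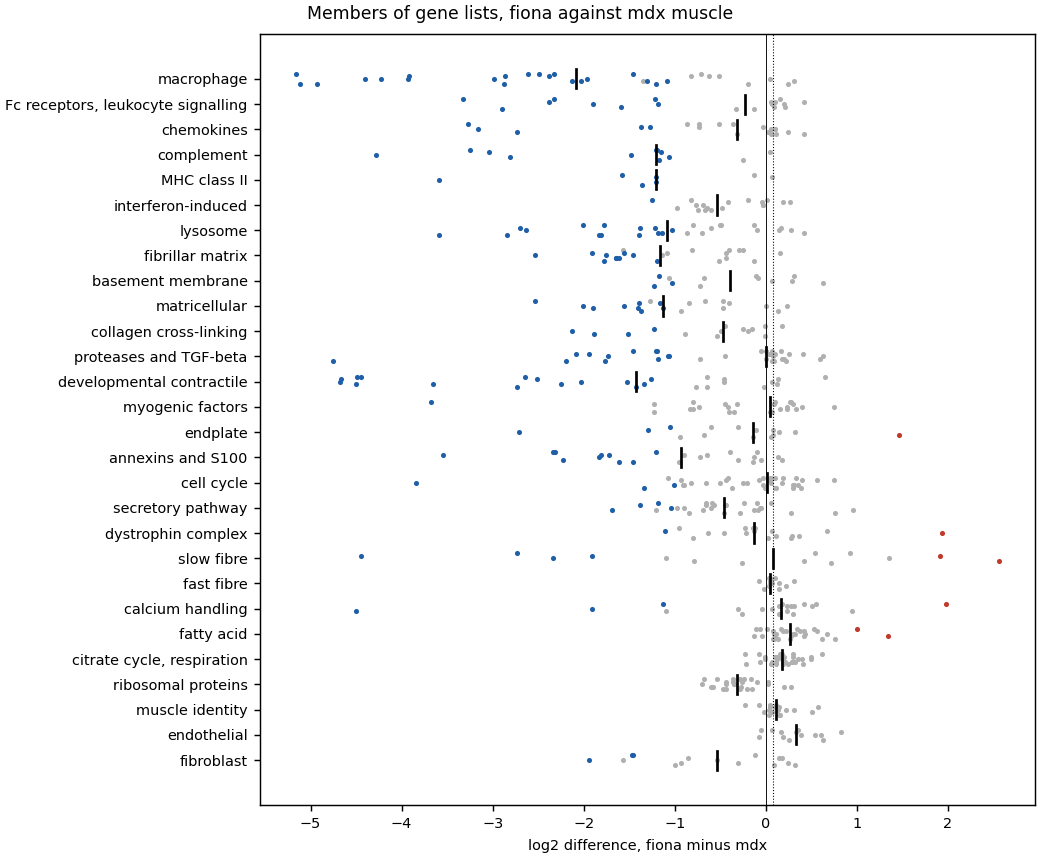
Log2 difference between fiona and mdx muscle (x axis) for the members of 28 gene lists, 1 point per gene, with genes called lower in blue, called higher in red and others in grey. A black bar marks each list's median and the dotted line the median of all genes, 0.08; the macrophage list has the lowest median, -2.08.

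The mdx arrays differed among themselves, and not in 1 direction. Mdx array 2 had the lowest mean of the developmental contractile list (6.53) and the lowest Myog, Myh3 and Chrna1 of its group. Mdx array 4 had the lowest mean of the macrophage list (5.87) but the highest of the contractile list (8.35), the most Postn and the most Igf2. Mdx array 1 had the highest macrophage mean (7.14). On the fiona arrays the macrophage mean ran from 3.89 on array 1 to 4.45 on array 4, and the contractile mean from 5.39 on array 4 to 6.02 on array 2. Arrays 1 and 4 had the most Utrn signal, and they held the lowest and the highest macrophage mean of the fiona group. The fibrillar matrix mean spanned 5.67 to 6.97 on fiona arrays, a wider range than the 7.12 to 8.20 of the mdx arrays.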

How the data were processed

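Each of the 17 arrays was 1 sample, and no label says more on independence than biological replicate. The deposited log2 values per probe set were made by the authors with RMA or GCRMA, per the submitters' processing notes, and the sources used here do not give which. They were tested as deposited by limma's lmFit and eBayes (limma 3.58.1, R 4.3.3): 1 fit of all 17 arrays with 3 group means, contrast fiona minus mdx, p-values adjusted by Benjamini-Hochberg over 22626 probe sets. Values after ± are SD unless marked SE. Symbols came from the platform annotation: 20380 probe sets had 1 symbol, 691 several and 1555 none, and only the first were named. No filter on level was applied. Where arrays of the dimmer group lay at or under the median of the array's 15 unspiked controls, that median replaced them and the fold is "at least" that size. The number of arrays limits the precision. Named were every Utrn and Dmd probe set, the called genes of largest change and up to 8 called members per list. Stau2, Sorl1, Mapt, Fgf1, Rbpms, Mymk, Clec16a, Tubb2a, Tubb2b and the genes of the closing observations fall outside that rule: they were picked with their values in view. The comparison, the 45 gene lists and the tests were chosen with earlier results of these data known. Steps were tested on simulated data. Promoters came from a RefSeq table that held 9887 of the genes tested. Figures used Python 3.11.15 and matplotlib 3.10.9.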

Additional observations from a re-analysis of the deposited data

Results flagged for a closer look

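Single arrays stood far from the others of their group in 7 of 116 groups of values examined, and chance gives about 1 in 20. The figure given is the gap to the nearest array as a share of the group's range. On fiona array 2, Nos1 was low (5.84, 0.797), while Cav3 (8.47, 0.781) and Sln (4.89, 0.874) were high. Timp1 was high on fiona array 5 (2.73, 0.786), at the level of the unspiked controls. Apoe was low on mdx array 2 (9.63, 0.637) and Cbr2 low on mdx array 4 (4.86, 0.779). The difference between 3′ and 5′ Gapdh probe sets was high on mdx array 1 (2.54, 0.897). Leaving that array out kept 355 of the 443 called genes.

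The difference between fiona and mdx muscle was tested between the 2 array sets, which were defined from the data, and 40 of 22626 probe sets passed (0.177%), 29 of them by at least 2-fold. Among the genes described, Utrn on 1426892_at was 3.66 higher in set 1 than in set 2 (adjusted p = 4.32e-05 in limma) and Dach2 2.65 higher (adjusted p = 0.0278). Of the fiona arrays, set 1 holds arrays 1 and 4.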

How the results depend on the processing

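All 443 genes called kept their direction under every alternative fitted, with these exceptions. The arrays of male pattern alone, among them only 1 fiona array (array 4), kept it for 436. The filter on dim probe sets tested 438 of the genes. Of the 443, 344 (18 higher, 326 lower) kept an adjusted p under 0.05 after centring, after quantile normalization, with array set or pattern in the model, and without each array in turn. The cause of the changes below was not tested, beyond fewer arrays or fewer probe sets where those are named. Probe sets past the adjusted p alone (9516 in the main analysis) numbered 122 in array set 2 alone, 200 in the female pattern alone, 3169 in the male pattern alone, 3872 after the filter on dim probe sets, 2473 after centring, 3363 after quantile normalization (2427 higher, 936 lower), 374 without fiona arrays 3 and 5, an alternative chosen after seeing the data, and 7000 to 10363 without single arrays; shifting arrays to equal unspiked controls gave 694 higher and 7494 lower. Genes past it (5070) numbered 85, 126, 1713, 2219, 1437, 1935 and 243 under the same 7 alternatives, and 3743 to 5510 without single arrays. At 2-fold, probe sets (681) numbered 93 in set 2, 157 in the female pattern, 248 without fiona arrays 3 and 5 and 1042 with array set and pattern together as a block, also chosen after seeing the data, and 570 to 833 without single arrays; genes (443) numbered 65, 104, 170 and 673, and 372 to 545. Whether the replicate numbers pair the samples could not be told. Same-numbered deviations correlated at -0.29, 0.14, -0.42, 0.30 and -0.36, and differently numbered ones at -0.56 to 0.58. The sign followed the array sets, positive within a set and negative between sets, so these correlations cannot decide on pairing. With the number as a replicate block 4529 probe sets and 2485 genes passed the adjusted p, and the differences were 1.90 for Utrn 1426892_at and 0.27 for Dmd 1430320_at, neither past the threshold.

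Utrn 1426892_at (difference 1.91) was not past the threshold in set 2 (0.44), the female pattern (1.28), the fiona and mdx arrays alone (1.91), after centring (1.79), after quantile normalization (1.83) or without fiona arrays 3 and 5 (2.74), and spanned 1.29 to 2.37 without single arrays. Utrn 1427569_a_at lost the call in set 2 (1.03) and the female pattern (1.5) and spanned 1.49 to 2.70. Utrn 1452222_at turned in the male pattern (0.57), as the mean of the gene's probe sets (1.25) and without fiona arrays 3 and 5 (0.031), and spanned -0.61 to -0.07. Dmd 1417307_at turned in set 2 (-0.0043), with equal unspiked controls (-0.16), in the female pattern (-0.0033), after centring (-0.090) and after quantile normalization (-0.081), and spanned -0.00215 to 0.073 without single arrays. Dmd 1430320_at lost its adjusted p in set 2 (0.32), with equal unspiked controls (0.10), in the female (0.31) and male pattern (0.23), after centring (0.17), after quantile normalization (0.17) and without fiona arrays 3 and 5 (0.19). Dmd 1448665_at turned as the mean of probe sets (0.013) and without fiona arrays 3 and 5 (0.26). Signal near background limits both genes' dim probe sets.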

Other observations

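A small group of called genes did not lie near normal muscle in fiona. Of the 443 called genes, 19 had a fiona mean more than 2-fold below the normal mean and 2 more than 2-fold above it (Lgals3 and Igf2), while limma called 1 probe set of the whole array between fiona and normal muscle, a Dmd probe set. Cbr2, a carbonyl reductase, read 2.96, 4.52, 3.82, 5.65 and 3.37 in fiona, 7.42, 7.23, 6.94, 4.86, 7.53 and 7.36 in mdx and 5.86 to 7.52 in normal muscle (7.08-fold lower than in mdx muscle, adjusted p = 0.00629), so that every fiona array lay below every normal array. Antxr2, a receptor for collagen and laminin, read 5.12 to 7.17 in fiona, 7.31 to 8.19 in mdx and 6.12 to 7.44 in normal muscle. Axl, a receptor for dying cells, read 4.77 to 7.0, 7.20 to 8.16 and 6.12 to 7.21, and Naa15, of an N-terminal acetyltransferase, 4.48 to 7.61, 7.10 to 8.07 and 7.48 to 7.96 in the same order. For the last 3 genes some fiona arrays lay inside the normal range.

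Of the called genes, 278 stood on none of the 45 lists. Among them, chosen after their values were seen, were the protease inhibitors Serpinb1a (13.1-fold lower, adjusted p = 1.1e-05) and Serpina3n (11-fold lower, adjusted p = 8.64e-05) and Ms4a7, a membrane protein of macrophages (at least 7.66-fold lower, adjusted p = 0.00127). Serpina3n spanned 3.06 to 3.28 in fiona and 4.85 to 7.86 in mdx muscle. Among the genes that rose, the RNA-binding proteins Stau2 and Rbpms rose 2.23-fold and 2.02-fold, the sorting receptor Sorl1 2.21-fold, the microtubule protein Mapt 2.1-fold and the growth factor Fgf1 2.06-fold (adjusted p = 0.00577, 0.012, 0.0103, 0.00158 and 0.012). In addition, 74 genes were called only on a probe set dimmer than the one that stands for them here, Utrn among them.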
